A study of Mus musculus with 22 samples.

Results

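The 77 genes described here encode proteins of the cytosolic ribosome, 47 of the large (60S) subunit with its stalk proteins and 30 of the small (40S) subunit. They are the genes of the count table whose symbol follows the naming pattern of the family (Rpl or Rps with a number, with the endings a, x or al allowed, together with Rplp0, Rplp1, Rplp2 and Rpsa) and whose mean was at least 10 counts over the 22 libraries. All 77 genes with such a symbol passed that minimum, out of 55573 genes in the table and 14062 that passed the same minimum. The member with the lowest mean was Rpl24 (51.1 counts) and the next was Rps10 (499 counts), so no member lay close to the minimum. The pattern leaves out a few ribosomal proteins with other symbols, such as Rps3a1 and Fau, which are given with the related genes.

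Each cytosolic ribosome holds a single copy of nearly every ribosomal protein, and the proteins, made in the cytoplasm, are assembled with ribosomal RNA mainly in the nucleolus. Their mRNAs are short, abundant and begin with a run of pyrimidines, the 5′ terminal oligopyrimidine (TOP) motif, through which mTORC1 and its effector LARP1 control their translation and stability. FLCN, the protein lost here, works on the lysosome as a GTPase-activating protein for RagC and RagD and helps to choose which substrates mTORC1 phosphorylates. In the liver, ribosome production accompanies growth and regeneration and falls with starvation.

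The libraries came from mRNA of whole livers of C57BL/6 mice, 1 library a mouse, sequenced as single 75-base reads. Cre mice carried Albumin-Cre with wild-type Flcn alleles and FLCN KO mice carried Albumin-Cre with floxed Flcn alleles, so that both genotypes expressed the recombinase in hepatocytes and only the second could lose Flcn. From 6 weeks of age, for 6 weeks, the mice ate either chow with 10 kcal percent fat or a methionine- and choline-deficient (MCD) diet, the second a model of steatohepatitis, and livers were taken at 3 months. The groups were Cre on chow (6 libraries), Cre on MCD (5 libraries), FLCN KO on chow (5 libraries) and FLCN KO on MCD (6 libraries). Depth ranged from 13751347 to 21144388 counted reads, and the least counted member had 26 reads in its lowest library. Levels are given as reads of a gene relative to the library total (CPM), scaled between libraries by TMM, which assumes that most genes do not change.

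The libraries held the markers that define liver. All 15 hepatocyte markers examined were present in all 4 groups, and Alb, the albumin gene, was the most abundant of them. Flcn itself, the check of the genotype labels, had 26.1 to 40.1 CPM (median 31.7) in Cre on chow. FLCN KO on chow had 24.2, 19.9, 16.7, 19.4 and 21.7 CPM, all below the Cre range, which gave a log2 fold change of −0.63 ± 0.17 (SE; adjusted p = 0.0249, edgeR quasi-likelihood test). The difference no longer passed without Cre chow 6 or without FLCN KO chow 3 or 4, with an adjusted p of up to 0.0679. On MCD the Cre livers had 31.7, 18.2, 39.8, 32.4 and 23.6 CPM and the FLCN KO livers 17.6 to 32.6 (median 26.6), with a log2 fold change of −0.16 ± 0.17 (adjusted p = 0.567). Flcn RNA thus fell in the chow groups only by that test, and the counts, which sum over the whole gene and over all liver cell types, do not single out the deleted exon.

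Several libraries stood apart in ways that the labels do not give. Xist, the RNA of the inactive X chromosome, had 5411 to 7573 counts in 12 libraries and 0 to 19 counts in 10, and every group held both kinds. Of the 12 libraries with high Xist, 5 also held 180 to 675 counts of the Y-linked genes Ddx3y, Kdm5d, Eif2s3y and Uty, against at most 51 in the other 7 and 1906 to 4321 in the low-Xist libraries. The 5 were Cre chow 2, Cre MCD 1, FLCN KO chow 2, FLCN KO chow 4 and FLCN KO MCD 3. By the study's library statistics, fewer reads mapped uniquely in 5 chow libraries (Cre chow 1, 5 and 6 and FLCN KO chow 1 and 3), which were also the chow libraries with low Xist. In them the major urinary protein (Mup) genes took 2.21% to 3.58% of the reads, against 0.236% to 0.659% in the high-Xist chow libraries. Cre MCD 3 had 3759 CPM summed over 15 skeletal muscle markers, with Myh1 the most abundant, against 5.99 to 185 CPM in the other libraries. Values within each Xist class, with the class as a covariate and without these libraries stand beside the results that they move, and the part of the Mup genes in the results was not tested.

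The sequences at the annotated starts of the genes are shown first, because the TOP motif is the feature that the family is known for. RefSeq promoters (GRCm38.p6) were available for 57 of the 77 members. A run of at least 8 pyrimidines touching the bases within 5 of the start was present in 19 of the 57 (33.3%), against 9.68% of 27025 promoters. For each member the promoter nearest the start of its main annotated transcript was taken. For the 27025 it was the first promoter of each gene by coordinate. The shares, here and for the motifs below, therefore come from unlike choices of promoter. The windows below run from 50 bases before the annotated start to 10 bases from it, with the longest such pyrimidine run in capitals. They are given for 3 members with a long run (Rps18, Rps27 and Rpl38) and for 4 with a short one. Of these 4, Rpl41 had a large log2 fold change on MCD in both genotypes and Rplp0 in Cre, while Rplp0 lay near the members' median in FLCN KO. Rpl35a and Rpl36al had small ones in both.
Rps18, chr17:33955656-33955715, minus strand: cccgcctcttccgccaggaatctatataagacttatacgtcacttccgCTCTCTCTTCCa
Rps27, chr3:90213639-90213698, minus strand: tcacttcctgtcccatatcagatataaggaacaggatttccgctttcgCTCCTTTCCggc
Rpl38, chr11:114668530-114668589, plus strand: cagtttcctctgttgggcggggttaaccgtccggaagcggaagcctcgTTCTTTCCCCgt
Rpl41, chr10:128549159-128549218, minus strand: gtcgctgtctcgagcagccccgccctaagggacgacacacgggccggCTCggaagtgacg
Rplp0, chr5:115559417-115559476, plus strand: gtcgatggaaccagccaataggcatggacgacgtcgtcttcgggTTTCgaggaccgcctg
Rpl35a, chr16:33056403-33056462, plus strand: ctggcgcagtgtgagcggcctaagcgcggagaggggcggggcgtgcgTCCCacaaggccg
Rpl36al, chr12:69184058-69184117, minus strand: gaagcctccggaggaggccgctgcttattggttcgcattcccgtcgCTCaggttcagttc

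These letters describe the annotated start, and where transcription began in these livers was not measured. Among the 300-base promoters, CCGGAAG, the core of an ETS family site, searched on both strands, was present in 36.8% of the members' and 9.08% of all promoters, and TATAAA in 8.77% and 14.1%. The YY1 motif AAGATGGC was present in 7.02% and 2.86%, CCAAT in 33.3% and 37.8%, and the E-box CACGTG in 8.77% and 7.09%. The members with long and short runs overlapped in every comparison. On MCD against chow in Cre the 19 members with a run of at least 8 had a median log2 fold change of 0.36 (range −0.18 to 0.61) and the other 38 of 0.19 (range −0.30 to 0.98). On MCD against chow in FLCN KO the 19 members with a run of at least 8 had a median log2 fold change of 0.55 and the other 38 of 0.48, with ranges of 0.17 to 0.80 and −0.17 to 1.04. For FLCN KO against Cre on chow the medians were −0.28 and −0.33, on MCD −0.10 and −0.09, and for the interaction of genotype and diet 0.19 and 0.22, so members with a long run had the smaller median in size on chow and in the interaction.

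The shared level, the mean log2 CPM over the 77 members, was lowest in FLCN KO on chow, where the 5 livers had 7.06, 6.84, 6.90, 6.83 and 6.68 (mean 6.86 ± 0.137, SD). Cre on chow had 7.06 to 7.41 (median 7.14, mean 7.19 ± 0.138, n = 6). The highest FLCN KO value and the lowest Cre value on chow were equal to 2 decimals, and the other livers of the 2 groups did not overlap. On MCD, FLCN KO had 7.21 to 7.56 (median 7.34, mean 7.35 ± 0.142, n = 6), all above FLCN KO on chow. Cre on MCD had 7.26, 7.81, 7.11, 7.39 and 7.57 (mean 7.43 ± 0.272), a range that overlapped both Cre on chow and FLCN KO on MCD. The means therefore rose in the order FLCN KO chow, Cre chow, FLCN KO MCD and Cre MCD, and each group overlapped its neighbour in that order, the first pair by 1 liver only.

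**Figure D1:**
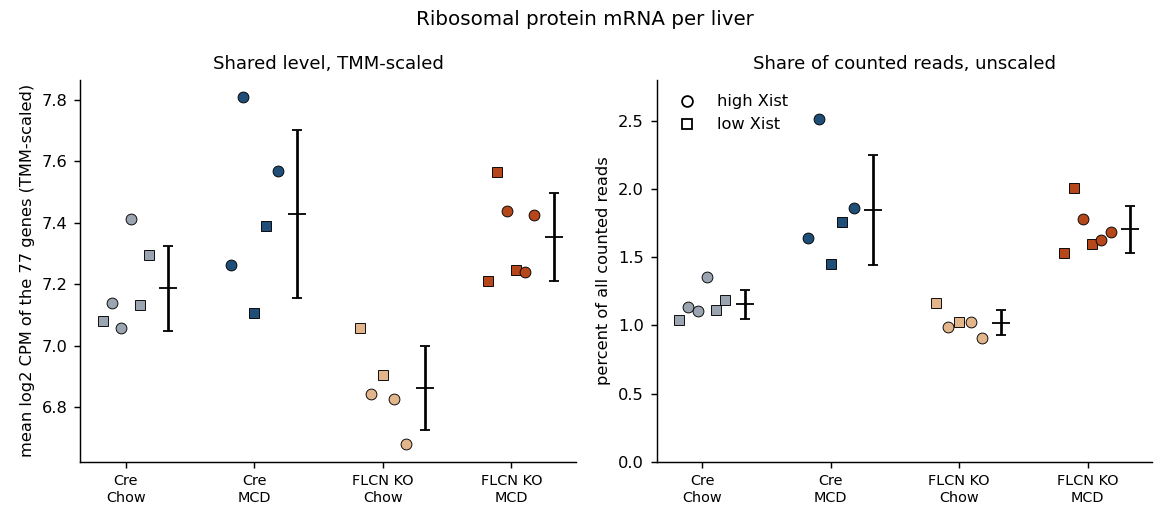
Ribosomal protein mRNA in each of the 22 livers, with the mean log2 CPM of the 77 genes on the left and their summed percent of all counted reads on the right. Each point is a liver (circles high Xist, squares low Xist), bars are mean ± SD, and the FLCN KO livers on chow have the lowest mean in both panels while the MCD livers of both genotypes hold the largest shares.

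Without any scaling between genes, the 77 members took 1.15% ± 0.107 of counted reads in Cre on chow, 1.85% ± 0.404 in Cre on MCD, 1.02% ± 0.0919 in FLCN KO on chow and 1.70% ± 0.171 in FLCN KO on MCD (SD). The shares of both MCD groups lay above those of both chow groups in every liver, with a lowest MCD value of 1.45% and a highest chow value of 1.35%. The scaling moved the values of all genes. With library size alone, the median log2 fold change of all 14062 genes on MCD was 0.43 in Cre and 0.27 in FLCN KO, and it was 0.12 for FLCN KO against Cre on chow, against 0.01, 0.00 and −0.03 with TMM. Relative to the median of all genes, the members' median moved by 0.26 in Cre, 0.53 in FLCN KO and −0.31 between the genotypes on chow with TMM, and by 0.27, 0.54 and −0.31 with library size alone. In bulk liver, fewer cells of a type and less RNA per cell cannot be told apart.

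Most of the family was higher on MCD than on chow in FLCN KO. Of the 77 members, 66 rose and 0 fell at an adjusted p under 0.05 (edgeR quasi-likelihood test, Benjamini-Hochberg over all genes), where the background was 22.5% of all genes higher and 22.5% lower. The median log2 fold change was 0.54 (1.45-fold), against 0.00 over all genes, and 75 of the 77 estimates were above 0. In 55 members every MCD liver was above every chow liver, where 14.4% of all genes were so separated. By subunit, 37 of 47 large-subunit members rose (median 0.50) and 29 of 30 small-subunit members rose (median 0.58). The 11 members that did not pass were Rpl10, Rpl22, Rpl24, Rpl26, Rpl27, Rpl35a, Rpl36a, Rpl36al, Rpl7, Rpl7a and Rps2, and of these the estimates of Rpl36al (−0.17 ± 0.10, adjusted p = 0.196) and Rpl7 (−0.09 ± 0.07, adjusted p = 0.303) were below 0. No member fell at an unadjusted p under 0.05, nor by DESeq2 or limma-voom at the adjusted threshold.

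The 4 members with the largest rise in FLCN KO were Rpl41, Rpl12, Rpl38 and Rps18. Rpl41, which encodes the smallest ribosomal protein, went from 161, 148, 141, 136 and 123 CPM on chow to 236 to 381 CPM (median 291) on MCD. The groups did not overlap, and the log2 fold change was 1.04 ± 0.14 (adjusted p = 5.08e-06). Rpl12 (chr2:32961559-32965345, plus strand, GRCm38), a protein at the base of the stalk where elongation factors bind, went from 178, 145, 154, 148 and 122 CPM to 252 to 315 CPM (median 288), again without overlap, with a log2 fold change of 0.94 ± 0.13 (adjusted p = 8.79e-06). Rpl38, whose loss in mice disturbs the patterning of the skeleton, rose by a log2 fold change of 0.80 ± 0.13 (adjusted p = 3.47e-05). Rps18, a protein of the head of the small subunit, rose by 0.79 ± 0.16 (adjusted p = 0.0005), from the lowest chow levels relative to Cre of any member.

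In Cre mice fewer members passed the same test, and some fell. Of the 77 members, 34 rose and 3 fell, where 29.3% of all genes were higher and 28.2% lower, so with all livers the share of members that rose (34 of 77) was above the background and the share that fell was below it. The split of all genes moved to 56.2% higher and 12.5% lower with library size alone, and that of the members to 73 higher and 0 lower. The median log2 fold change of the members was 0.27 (1.21-fold), and 69 of the 77 estimates were above 0. Only 3 members had every MCD liver above every chow liver, where 15.6% of all genes did, and the shared level of Cre MCD 3 (7.11) lay within the range of Cre on chow. The 3 separated members were Rpl41, Rpl12 and Rplp0, and 0 members were separated in the other direction, where 16.9% of all genes were. The excess of members that rose was lost without Cre MCD 2, where the members' median was 0.15. In that fit 22 members and 27.5% of all genes rose. The count was 46 without Cre MCD 3 (29.4% of all genes), and 19 without the 5 chow libraries in which fewer reads mapped uniquely (26.5% of all genes). Within the high-Xist livers 35 members rose (median 0.35), where 26.3% of all genes did. Within the low-Xist livers 3 rose (median 0.12), a share below the 18.3% of all genes that did. In Cre that fit held 3 chow livers, all with fewer uniquely mapped reads, and 2 MCD livers, Cre MCD 3 and 4. The latter had the highest sums of skeletal muscle markers in their group, so the Xist class cannot be told apart from these traits. In FLCN KO 63 members rose within the high-Xist livers (median 0.64) and 18 within the low-Xist livers (median 0.40), where 20% and 9.3% of all genes did. With the Xist class as a covariate over all 22 libraries, 33 members rose and 3 fell in Cre and 65 rose and 0 fell in FLCN KO. Of all genes, 29.9% rose and 28.2% fell in Cre and 23.1% rose and 22.7% fell in FLCN KO in that fit.

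Rpl41 again led in Cre, from 153 to 201 CPM (median 175) on chow to 305, 429, 233, 335 and 430 CPM on MCD, without overlap, with a log2 fold change of 0.98 ± 0.14 (adjusted p = 4.38e-06). Rpl12 went from 156 to 241 CPM (median 184) to 284, 439, 260, 302 and 377 CPM, with a log2 fold change of 0.81 ± 0.13 (adjusted p = 2.32e-05). Rplp0, the scaffold of the ribosomal stalk and a common reference gene for quantitative PCR, went from 300 to 409 CPM (median 358) to 510, 846, 467, 546 and 636 CPM. Its log2 fold change was 0.75 ± 0.13 (adjusted p = 4.69e-05), and the groups did not overlap. Rpl38 rose by 0.61 ± 0.13 (adjusted p = 0.00031).

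The 3 members that fell in Cre were Rpl22, Rpl7 and Rpl36al. Rpl22 (chr4:152325742-152334071, plus strand), an RNA-binding protein that is not needed for translation in general, had 136 to 181 CPM (median 154) on chow and 118, 146, 115, 122 and 138 CPM on MCD, overlapping ranges with a log2 fold change of −0.30 ± 0.08 (adjusted p = 0.00261). Rpl7 (chr1:16101295-16104662, minus strand), a large-subunit protein that binds RNA, had 231 to 273 CPM (median 241) on chow and 180, 236, 195, 193 and 203 CPM on MCD, where only Cre MCD 2 reached the chow range, with a log2 fold change of −0.28 ± 0.07 (adjusted p = 0.00233). Rpl36al, a close paralog of Rpl36a, had a log2 fold change of −0.27 ± 0.10 (adjusted p = 0.0338) and shares 63.1% of its exon bases with Gm49383 on the same strand, so its counts are uncertain. Its call was lost in 6 of the 22 fits that left out 1 library, those without Cre chow 1, 4, 5 or 6 or Cre MCD 1 or 3, with an adjusted p of up to 0.105. Rpl35a, next in order, missed the threshold at −0.26 ± 0.12 (adjusted p = 0.0585). With library size alone Rpl22, Rpl7 and Rpl36al had log2 fold changes of 0.12, 0.14 and 0.16, so their fall holds only relative to the other genes.

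**Figure D2:**
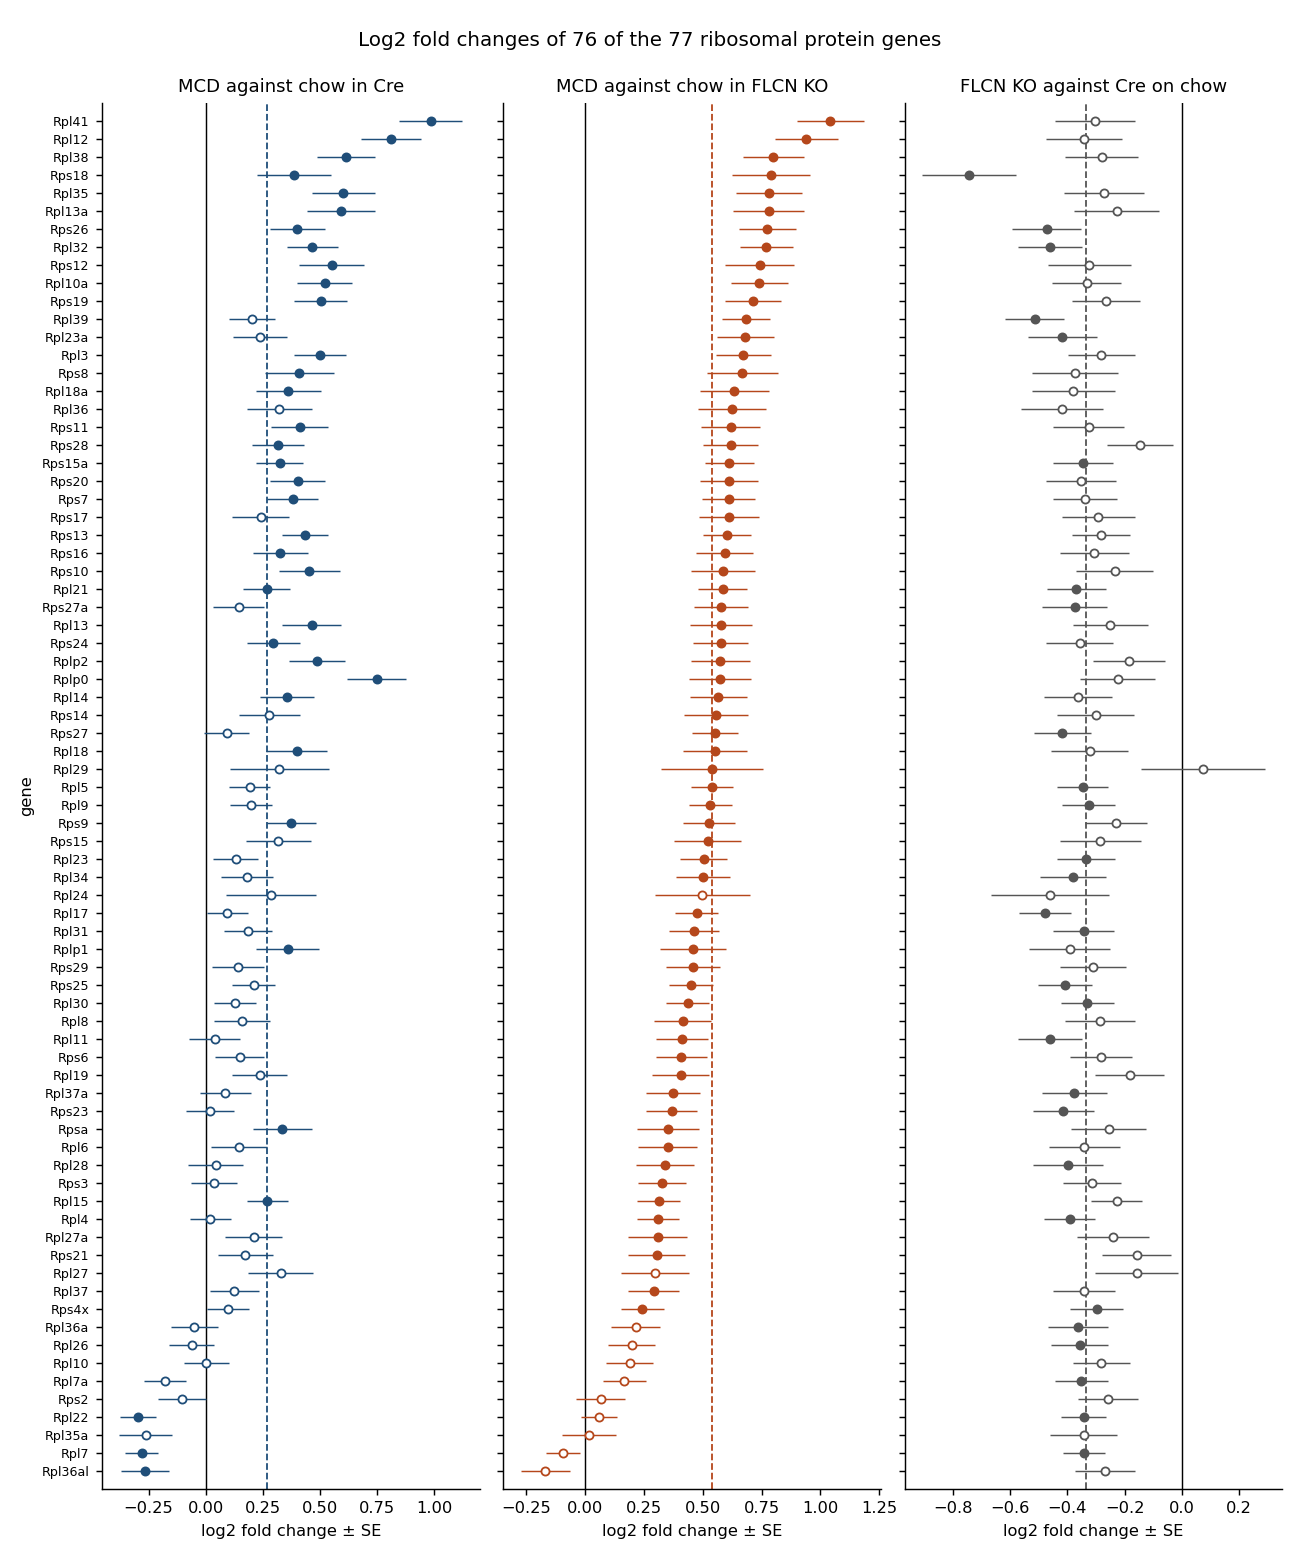
Log2 fold change ± SE of 76 of the 77 members for MCD against chow in Cre, MCD against chow in FLCN KO, and FLCN KO against Cre on chow, in the order of the middle panel. Filled points have an adjusted p under 0.05 and dashed lines mark the medians of all 77 (0.27, 0.54 and −0.33), and the members spread more widely around the dashed line in the 2 diet panels (SD 0.24 and 0.22) than in the third (SD 0.10).

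All 34 members that rose in Cre also rose in FLCN KO (44.2% of the members, where 16.7% of all genes rose in both), and another 32 rose only by the FLCN KO test (41.6%, where 5.75% of all genes did). The difference between the genotypes in the response to the diet was tested itself, as the genotype by diet interaction. It was called for 3 members, all higher in FLCN KO, and for 0 lower (edgeR; 16 and 0 at an unadjusted p under 0.05, 4 and 0 by DESeq2, 3 and 0 by limma-voom), where 3.29% of all genes were higher and 5.54% lower (8.83% in either direction). The 3 were Rpl39 (0.48 ± 0.14 log2, adjusted p = 0.0387), Rps27 (0.46 ± 0.14, adjusted p = 0.0417) and Rpl22 (0.36 ± 0.11, adjusted p = 0.0455). The share called with all livers (3 of 77) was near the background, so that fit sets few single members apart, unlike the fit without Cre MCD 2 given below. The median of the 77 interaction estimates was 0.24, against 0.03 over all genes, and 75 of them were above 0, with Rplp0 (−0.18 ± 0.18, adjusted p = 0.606) and Rpl27 (−0.03 ± 0.20, adjusted p = 0.944) the exceptions. The level that the members share varied between livers of a group (pooled SD 0.178 log2). Estimates of different members are therefore not independent, and the counts of signs, here and in the other comparisons, are a description. The shared level itself was not tested. The number called was 14 without Cre MCD 2, where 3.68% of all genes were called higher, so the share of members was above the background in that fit. It was 0 without Cre chow 2 or 4, Cre MCD 1, 3 or 4, FLCN KO chow 4 or 5, or FLCN KO MCD 2, 3 or 6 (1.94% to 4.13% of all genes). It was 1 without Cre chow 5 or 6, FLCN KO chow 2 or 3, or FLCN KO MCD 1 (2.59% to 3.18% of all genes). With library size alone, within high-Xist livers, within low-Xist livers and without the 5 high-Xist libraries with Y-linked counts it was 0 (0.0284% to 3.16% of all genes). It was also 0 with at least 10 counts in every library, with no filter on low counts and with the replicate block (0.666% to 2.82% of all genes). The median was 0.25 in each Xist class, and with library size alone it was 0.08, against −0.13 over all genes.

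The 3 members called in the interaction differed less between the genotypes on MCD than on chow. Rpl39 (chrX:37082520-37085402, minus strand), a short protein at the exit tunnel of the large subunit, had 39.0 to 55.1 CPM (median 43.1) in Cre on chow and 33.9, 30.7, 35.5, 28.4 and 28.0 CPM in FLCN KO on chow. On MCD it had 51.2, 58.4, 40.1, 49.4 and 57.9 CPM in Cre and 45.6 to 57.7 CPM (median 49.7) in FLCN KO, so that the chow groups were apart and the MCD groups overlapped. Rps27, a zinc-finger protein of the small subunit, had 141 ± 16.7 CPM (SD) in FLCN KO on chow and between 188 and 207 CPM on average in the other 3 groups. Its mRNA shares 98.5% of its 75-base stretches with other annotated genes, so its reads cannot be told apart from theirs over most of its length.

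The spread between members was then set apart from the shared shift. The SD of the log2 fold changes across the 77 members was 0.24 for MCD in Cre and 0.22 for MCD in FLCN KO, about as large as the shift in Cre and above the median SE of a single member (0.12 in both). For FLCN KO against Cre the SD was 0.10 on chow and 0.10 on MCD, where the median SE was 0.12 in both. This SE includes variation between livers that all members share. To test single members, the libraries were scaled to the mean log count of the members themselves, in place of TMM, so that 0 stands for the shared shift. The departures were thereby relative to the rest of the family. For FLCN KO against Cre the SD of the departures was 0.101 on chow and 0.0997 on MCD, above their median SE of 0.0719 and 0.0718. On this scale 61.3% of all genes were called on MCD in FLCN KO and 53.8% in Cre.

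On MCD in FLCN KO, 13 members lay above the shared shift and 15 below it, where 5.7% of all genes were called higher and 55.6% lower on this scale. On MCD in Cre, 15 members lay above and 15 below, where 17.4% of all genes were called higher and 36.5% lower. The share above in Cre was near the background. Both genotypes had 10 members above (13% of the members, where 5.11% of all genes were above in both), among them Rpl12, Rpl32, Rpl35, Rpl38, Rpl41 and Rps19. They had 10 below (13%, where 34.1% of all genes were below in both), Rpl10, Rpl22, Rpl26, Rpl35a, Rpl36a, Rpl36al, Rpl7, Rpl7a, Rps2 and Rps3. The 2 sets of departures come from separate livers, and across the 77 members their Pearson correlation was 0.882 and their Spearman correlation 0.834. The members share gene lengths, base composition and the reads that map to several copies, and genes are not independent replicates, so the correlation is a description.

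The largest departures upward in Cre were Rpl41 (0.72 ± 0.09 log2, adjusted p = 1.2e-06) and Rpl12 (0.55 ± 0.08, adjusted p = 4.61e-06), which in FLCN KO were 0.54 ± 0.09 and 0.45 ± 0.08. The departures with the smallest p downward were Rpl22 (−0.54 ± 0.08, adjusted p = 7.34e-06) and Rpl35a (−0.50 ± 0.08, adjusted p = 1.18e-05) in Cre, and Rpl36al (−0.66 ± 0.09, adjusted p = 5.03e-06) and Rpl35a (−0.47 ± 0.07, adjusted p = 2.44e-05) in FLCN KO. Rpl7 (−0.59 ± 0.09, adjusted p = 2.56e-05) was close to them in FLCN KO. Rplp0 departed in Cre (0.48 ± 0.08) but lay near the shared shift in FLCN KO (0.08 ± 0.08, adjusted p = 0.381), and it was the only member called in the interaction on this scale (−0.40 ± 0.11, adjusted p = 0.0295), where 8.6% of all genes were called lower and 8.92% in either direction.

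**Figure D3:**
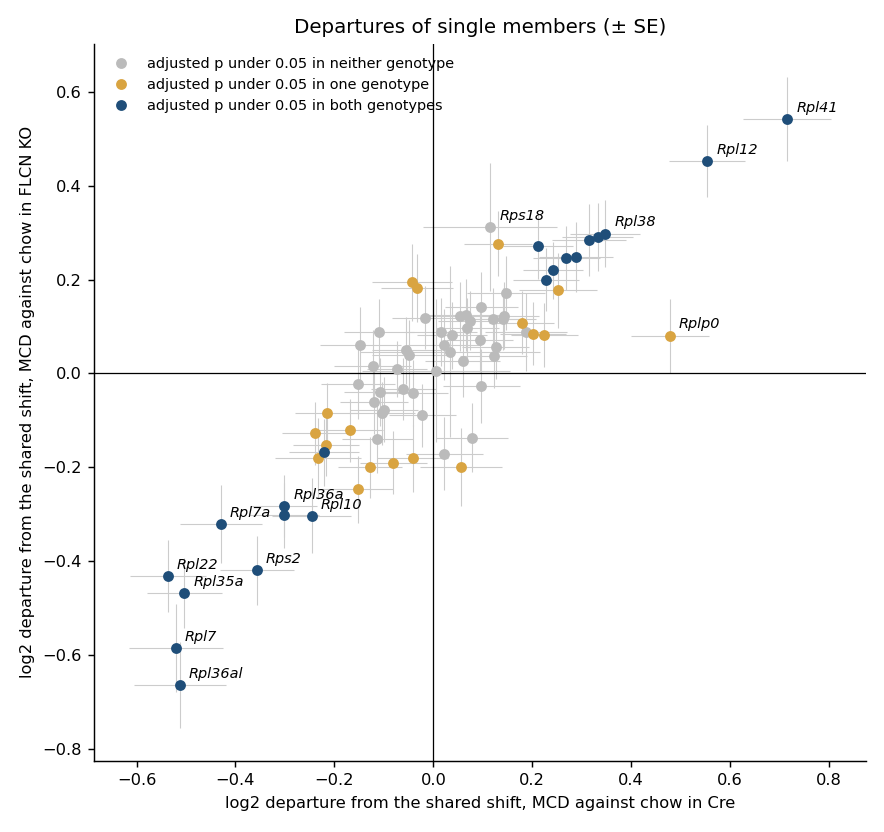
Departure of each of the 77 members from the shared shift on MCD against chow, in Cre on the horizontal axis and in FLCN KO on the vertical axis, in log2 units with SE. Rpl41 and Rpl12 lie far above and Rpl22, Rpl35a, Rpl7 and Rpl36al far below the shared shift in both genotypes, and Rplp0 departs in Cre alone by this test.

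On chow, the estimates for FLCN KO against Cre were below 0 in nearly all members, and fewer than that passed the test. Of the 77 members, 29 fell and 0 rose (edgeR; 63 and 0 at an unadjusted p under 0.05, 38 and 0 by DESeq2, 28 and 0 by limma-voom), where 3.1% of all genes were lower and 5.52% higher (8.62% in either direction). The median log2 fold change was −0.33, against −0.03 over all genes, and 76 of the 77 estimates were below 0, with Rpl29 (0.07 ± 0.22, adjusted p = 0.878) the exception. In 34 members every FLCN KO liver lay below every Cre liver, where 2.93% of all genes did, and 0 members were separated upward, where 4.01% of all genes were. By subunit, 20 of 47 large-subunit members (median −0.34) and 9 of 30 small-subunit members (median −0.31) fell. The number of members called depended on single libraries. It was 10 without FLCN KO chow 5 (1.91% of all genes lower), 12 without FLCN KO chow 4 (1.21%), 14 without Cre chow 4 (2.72%) and 16 without FLCN KO chow 2 (3.04%). It was 18 without FLCN KO chow 3 (2.05%) or Cre chow 6 (2.7%), 19 without Cre chow 2 (2.53%) and 41 without Cre MCD 2 (3.98%). The median of the members stayed between −0.37 and −0.28.

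With the Xist class as a covariate over all 22 libraries, 28 members fell on chow (median −0.34), where 3.36% of all genes did, and the interaction called 3 members higher, where 3.75% of all genes were. The 4 fits on fewer libraries that follow called smaller shares of all genes as well. In the high-Xist livers 8 members fell (median −0.42), where 1.16% of all genes did, and in the low-Xist livers, with 3 Cre and 2 FLCN KO libraries on chow, none fell (median −0.17), where 0.377% of all genes did. Without the 5 chow libraries in which fewer reads mapped uniquely 7 members fell (median −0.42; 0.846% of all genes), and without the 5 high-Xist libraries with Y-linked counts 1 fell (median −0.32; 0.519% of all genes). With library size alone 3 fell (median −0.19, where all genes had a median of 0.12 and 0.889% of them fell), and no filter on low counts left 12 (0.576% of all genes). The direction of the median was therefore the same in all of these, and the number of members past the threshold was not.

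Rps18 was the most reduced member on chow. Cre livers had 147 to 186 CPM (median 178) and FLCN KO livers 131, 95.3, 116, 85.8 and 93.1 CPM, which did not overlap, with a log2 fold change of −0.74 ± 0.16 (adjusted p = 0.00572). It was the only member called as a departure from the shared shift between the genotypes on chow (−0.43 ± 0.14, adjusted p = 0.0295), where 0.498% of all genes were called lower and 22% higher on this scale (22.5% in either direction), and 77.8% of its 75-base stretches occur in other annotated genes. Rpl39 (−0.51 ± 0.10, adjusted p = 0.00239), Rpl17 (−0.48 ± 0.09, adjusted p = 0.0015), a large-subunit protein, and Rps26 (−0.47 ± 0.12, adjusted p = 0.0163), a small-subunit protein near the mRNA exit, followed, and the call for Rps26 was lost without FLCN KO chow 5 (adjusted p = 0.0511). Rpl17 had 243 to 290 CPM (median 250) in Cre and 199, 193, 186, 181 and 165 CPM in FLCN KO, again without overlap. The smallest differences after Rpl29 were those of Rps28 (−0.15 ± 0.11, adjusted p = 0.473), Rpl27 (−0.16 ± 0.14, adjusted p = 0.552) and Rps21 (−0.16 ± 0.12, adjusted p = 0.459), none of which passed the test.

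On MCD few members passed the test between the genotypes. Of the 77 members, 1 fell and none rose, where 8.53% of all genes were lower and 8.06% higher (16.6% in either direction), and 0 members were separated between the groups in either direction (5.08% of all genes higher and 3.53% lower). The median log2 fold change was −0.10, and it was 0.02 without Cre MCD 2. It was −0.19 within the high-Xist livers and 0.09 within the low-Xist livers, so its direction was not the same in all of these. No member rose at an unadjusted p under 0.05 either, 5 fell at that level, and DESeq2 and limma-voom each called 0 higher and 1 lower. The member that fell was Rplp0 (−0.40 ± 0.13, adjusted p = 0.0369), with 510, 846, 467, 546 and 636 CPM in Cre and 383 to 540 CPM (median 450) in FLCN KO. These ranges overlapped, and the call was lost in 7 of the 22 fits that left out 1 library, those without Cre MCD 2 (log2 fold change −0.25) or 5 and without FLCN KO MCD 1, 3, 4, 5 or 6, and no member fell in them. Without Cre MCD 3, 3 members fell, where 8.31% of all genes were lower. Rps18 (−0.34 ± 0.16, adjusted p = 0.163), Rplp1 (−0.29 ± 0.14, adjusted p = 0.166) and Rpl24 (−0.25 ± 0.19, adjusted p = 0.429) had the next lowest estimates. Rps28, a small-subunit protein, lay above the shared shift by 0.24 ± 0.08 (adjusted p = 0.0447), and Rplp0 below it by −0.30 ± 0.08 (adjusted p = 0.0153), where 6.74% of all genes were called higher and 3.8% lower on that scale. Both comparisons of MCD with chow and both of FLCN KO with Cre share their groups, so their values are given side by side and not as independent support for each other.

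**Figure D4:**
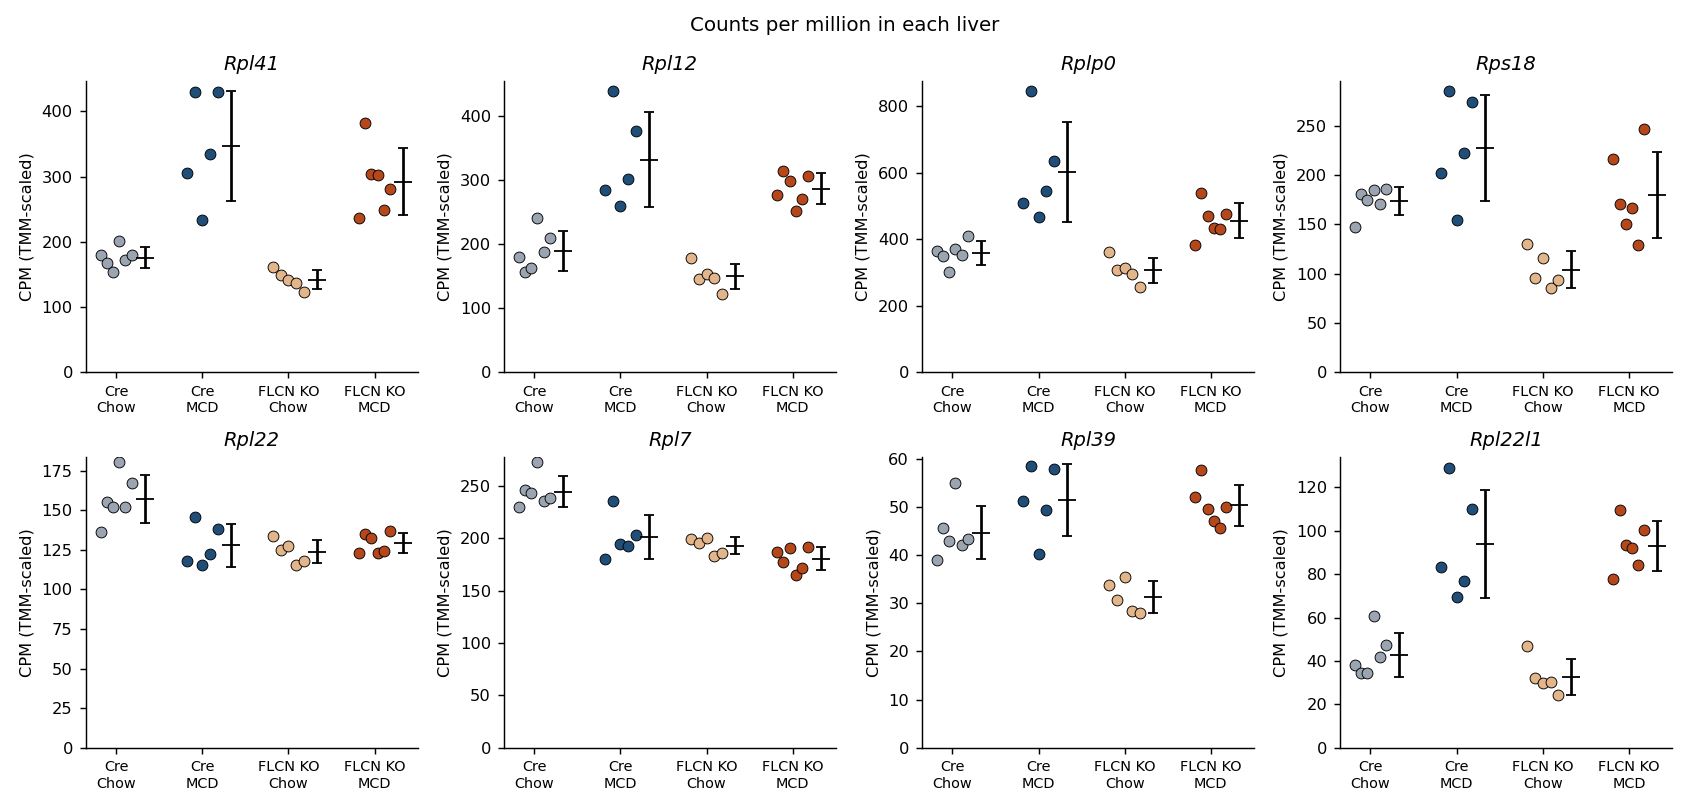
CPM in each liver for 7 members and for Rpl22l1, a paralog of Rpl22, with mean ± SD beside each group. Rpl41, Rpl12 and Rpl22l1 are higher on MCD in both genotypes without overlap, Rpl7 is not, and Rps18 and Rpl39 are lowest in FLCN KO on chow.

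Members with known roles followed the shared shift to different degrees. In the stalk, Rplp1 and Rplp2, the acidic proteins that recruit translation factors, rose on MCD by 0.36 ± 0.14 (adjusted p = 0.033) and 0.49 ± 0.12 (adjusted p = 0.00204) in Cre and by 0.46 ± 0.14 (adjusted p = 0.0112) and 0.58 ± 0.13 (adjusted p = 0.000757) in FLCN KO. The call for Rplp1 in Cre was lost in 7 of the 22 fits without 1 library, with 0.23 without Cre MCD 2. On chow the differences between the genotypes in Rplp1 and Rplp2 were −0.39 ± 0.14 (adjusted p = 0.0883) and −0.18 ± 0.12 (adjusted p = 0.391). Rpsa, a small-subunit protein also known as the laminin receptor precursor, rose by 0.34 ± 0.13 in Cre (adjusted p = 0.032) and 0.35 ± 0.13 in FLCN KO (adjusted p = 0.0322). The call for Rpsa was lost in 6 of the 22 fits without 1 library in Cre, with 0.20 without Cre MCD 2, and in 5 in FLCN KO, with 0.29 without FLCN KO chow 5.

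Rps6, the substrate of S6 kinase that serves as a readout of mTORC1, rose in FLCN KO by 0.41 ± 0.11 (adjusted p = 0.00403), and in Cre its estimate was 0.15 ± 0.11 (adjusted p = 0.244). Rpl5 and Rpl11, which form a complex with 5S ribosomal RNA that binds MDM2 when ribosome assembly fails, rose in FLCN KO by 0.54 ± 0.09 (adjusted p = 5.42e-05) and 0.41 ± 0.11 (adjusted p = 0.0047). In Cre their estimates were 0.19 ± 0.09 (adjusted p = 0.0708) and 0.04 ± 0.11 (adjusted p = 0.778), and both fell in FLCN KO on chow, by 0.35 (adjusted p = 0.0183) and by 0.46 (adjusted p = 0.0114) on the log2 scale. The Rpl5 call on chow was lost without FLCN KO chow 4 or 5, with an adjusted p of up to 0.0633. Rps27a, made as a fusion with ubiquitin, rose in FLCN KO by 0.58 ± 0.11 (adjusted p = 0.000309) and fell on chow between the genotypes (−0.37 ± 0.11, adjusted p = 0.0434), a call that was lost in 12 of the 22 fits without 1 library. The 4 X-linked members, Rps4x, Rpl10, Rpl36a and Rpl39, had estimates of 0.10 ± 0.09, 0.00 ± 0.10, −0.05 ± 0.10 and 0.20 ± 0.10 on MCD in Cre, none of which passed. In FLCN KO, Rpl39 rose (0.68 ± 0.10, adjusted p = 1.53e-05), as did Rps4x (0.24 ± 0.09, adjusted p = 0.0369), whose call was lost in 7 of the 22 fits without 1 library.

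Paralogs outside the naming pattern did not all behave as their partners. Rpl22l1, which encodes a near relative of Rpl22 that Rpl22 protein is known to hold down, had 34.3 to 60.6 CPM (median 39.9) in Cre on chow and 83.3, 129, 69.6, 76.9 and 110 CPM in Cre on MCD. In FLCN KO it went from 46.9, 31.9, 29.6, 30.3 and 24.4 CPM to 77.7 to 110 CPM (median 92.9). The groups did not overlap in either genotype, and the log2 fold changes were 1.13 ± 0.18 (adjusted p = 1.38e-05) and 1.51 ± 0.18 (adjusted p = 1.07e-06), where Rpl22 itself had −0.30 ± 0.08 and 0.06 ± 0.08. Rps27l, Rpl7l1 and Rps4l passed in none of the 5 comparisons. Rpl3l, the striated-muscle form of Rpl3, had 12.5 CPM in Cre MCD 3, the library with high muscle markers, and at most 0.727 CPM in the others. Its call on MCD in Cre (log2 fold change 5.18, adjusted p = 0.00153) was not tested without that library. Of the 8 paralogs listed, 5 were abundant enough to test. On MCD 1 of these, Rpl3l, was called lower in FLCN KO than in Cre (log2 fold change −5.27), where 8.53% of all genes were. That call rests on the level in Cre MCD 3 and was not tested without that library either, so it is not a result about the paralogs.

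**Figure D5:**
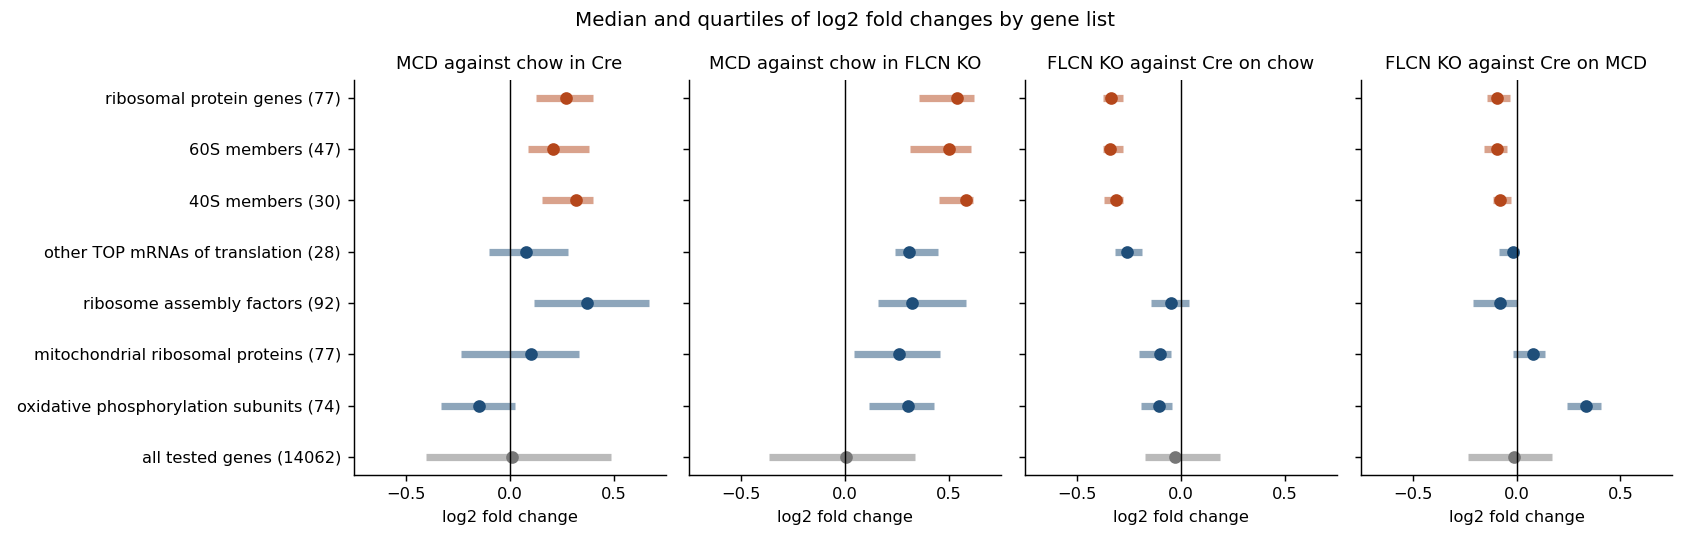
Median (points) and quartiles (bars) of the log2 fold changes in the ribosomal protein genes, in the 60S and 40S members, in 4 related gene lists and in all 14062 genes, for each of 4 comparisons. The ribosomal protein genes are lowest in the FLCN KO livers on chow together with other TOP mRNAs, while the oxidative phosphorylation genes differ between the genotypes on MCD.

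Genes around the ribosome were described in the same fit, where 29.3% of all genes rose and 28.2% fell on MCD in Cre, 22.5% rose and 22.5% fell in FLCN KO, and 5.52% were higher and 3.1% lower in FLCN KO on chow. Of 28 other mRNAs with a TOP motif, mostly factors of translation and the ribosomal proteins with other symbols, 19 rose and 2 fell on MCD in FLCN KO (median log2 fold change 0.31), and 7 rose and 4 fell in Cre, the rises at a share near the background (median 0.08, and −0.01 without Cre MCD 2). On chow 10 of them were lower in FLCN KO and none higher (median −0.26), among them Eif3h (−0.31 ± 0.07, adjusted p = 0.00406) and Eif3e (−0.27 ± 0.06, adjusted p = 0.00518), subunits of initiation factor eIF3. The number lower on chow was 6 without Cre chow 5 (2.15% of all genes) and 12 without Cre MCD 2 (3.98% of all genes), with a median of −0.26 in both. With all livers, the ribosomal proteins Rps3a1 (−0.34 ± 0.09, adjusted p = 0.0232) and Fau (−0.38 ± 0.11, adjusted p = 0.0311) were lower in FLCN KO on chow too. Both rose on MCD in FLCN KO, by 0.33 ± 0.09 (adjusted p = 0.00489) and 0.37 ± 0.11 (adjusted p = 0.00706) on the log2 scale. Fau was singled out after its values were seen. Of 92 ribosome assembly factors, 52 rose and 6 fell on MCD in Cre (median 0.37) and 43 rose and 4 fell in FLCN KO (median 0.32), while on chow 2 were lower and none higher (median −0.05). Cre MCD 2 stood apart in this list, with a sum of 5350 CPM against 3012 to 3632 CPM in the other 4 livers of its group, and with 1138 CPM of Ncl, the nucleolin gene, against 447 to 541. It also had the lowest sum of hepatocyte markers of that group (91233 CPM, against 122881 to 131538). Without it, a fit added after the data were seen, 44 assembly factors rose and 8 fell in Cre (median 0.29), where 27.5% of all genes rose and 27.4% fell. Eif6, which keeps the subunits apart until the large one is mature, rose by 1.64 ± 0.13 in Cre (adjusted p = 1.55e-09) and by 1.00 ± 0.13 in FLCN KO (adjusted p = 2.95e-06), and its interaction was called (−0.64 ± 0.18, adjusted p = 0.0315). It was the only interaction call among the 92 assembly factors (1.09%), where 5.54% of all genes were called lower, so it is not a result about the list. Without Cre chow 5 no assembly factor was called in the interaction.

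Of 31 regulators of translation and mTORC1, 10 rose (32.3%) and 12 fell (38.7%) on MCD in Cre, 9 rose (29.0%) and 5 fell (16.1%) in FLCN KO, and on chow 1 was higher and 1 lower (3.2% each). These shares were near those of all genes given above, apart from the falls in Cre, which were somewhat more frequent, and are not a result about the list. Larp1, the repressor of TOP mRNAs, was the 1 lower in FLCN KO on chow (−0.45 ± 0.09, adjusted p = 0.00342), and Eif2ak3, the kinase PERK of the unfolded protein response, was the 1 higher (0.69 ± 0.18, adjusted p = 0.0204). Pdcd4, an inhibitor of the helicase eIF4A, fell on MCD by 1.82 in Cre (adjusted p = 1.36e-10) and by 0.74 in FLCN KO (adjusted p = 2.51e-05) on the log2 scale, and its interaction was called (1.08 ± 0.17, adjusted p = 0.000762). Of the 31 regulators, 3 were called higher in the interaction and 0 lower, where 3.29% of all genes were higher and 5.54% lower.

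Mitochondrial ribosomal proteins, which form the separate ribosome of mitochondria, and subunits of oxidative phosphorylation were described for comparison. Of 77 mitochondrial ribosomal protein genes, 39 rose and 2 fell on MCD in FLCN KO (median 0.26), 26 rose (33.8%) and 18 fell (23.4%) in Cre (median 0.10), shares near those of all genes (19 and 23 without Cre MCD 2, median −0.00), and 4 were lower and none higher in FLCN KO on chow (median −0.10). The number lower on chow was 2 without Cre chow 5 and 6 without Cre MCD 2, where 2.15% and 3.98% of all genes were lower. Of 74 oxidative phosphorylation genes, 41 rose and none fell in FLCN KO (median 0.30), 4 rose and 33 fell in Cre (median −0.15), and on chow 4 were lower and none higher in FLCN KO (median −0.11). On MCD 44 of the 74 were higher and 2 lower in FLCN KO than in Cre (median 0.33), where 8.06% of all genes were higher and 8.53% lower and the cytosolic ribosomal proteins had 0 higher and 1 lower (median −0.10). Atp5a1, a catalytic-core subunit of ATP synthase, was among the genes that were higher (0.55 ± 0.07, adjusted p = 2.75e-05). Single estimates of this list lay far from its median, up to 7.05 on MCD in Cre and down to −4.03 between the genotypes on MCD. This list was not refitted without Cre MCD 2 or without Cre MCD 3, the library with high muscle markers. The part of these libraries in its counts was not tested.

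Some markers of cell types moved with the diet. Of all genes, 29.3% rose and 28.2% fell on MCD in Cre, and 22.5% rose and 22.5% fell in FLCN KO. Of 15 hepatocyte markers, 13 fell and 1 rose on MCD in Cre, and 11 fell and 1 rose in FLCN KO. Their summed level was 181467 ± 19287 CPM in Cre on chow, 120063 ± 16519 in Cre on MCD, 154220 ± 15841 in FLCN KO on chow and 104739 ± 12303 in FLCN KO on MCD (SD), and on chow 1 marker was higher and 1 lower in FLCN KO. In that comparison 14 of the 15 hepatocyte estimates were below 0 (median −0.25). Of 11 stellate cell and fibroblast markers, 9 rose on MCD in Cre and 1 rose and 1 fell in FLCN KO, with sums of 359 ± 88.4, 686 ± 155, 415 ± 86.0 and 454 ± 45.0 CPM in the same order and Dcn the most abundant. Of 15 macrophage markers, 8 rose and 3 fell in Cre and 3 rose and 4 fell in FLCN KO, with sums of 551 ± 94.1, 809 ± 155, 653 ± 102 and 659 ± 201 CPM and Cd5l the most abundant. The macrophage shares in FLCN KO (20% higher and 26.7% lower) were near those of all genes and are not a result about that list. No marker of these lists was at 0 in a whole group. Between the genotypes on chow, 4 macrophage markers were higher and none lower in FLCN KO, with 14 of 15 estimates above 0 (median 0.40). No stellate cell marker passed on chow, with 10 of 11 estimates above 0 (median 0.27). On MCD 7 stellate cell markers were lower in FLCN KO and 2 macrophage markers were higher and 4 lower, where again 8.06% of all genes were higher and 8.53% lower. The part of these markers in the ribosomal protein values was not tested.

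Lymphocyte markers (13 tested) had 0 calls on chow between the genotypes (adjusted p under 0.05, with 12 estimates above 0 in FLCN KO), 1 rise on MCD in Cre and 5 falls in FLCN KO, with sums between 21.1 and 32.7 CPM and Ptprc the most abundant. Of 8 endothelial markers 1 rose and 3 fell in Cre and 6 fell in FLCN KO, of 6 cholangiocyte markers 3 rose in Cre and none passed in FLCN KO, and of 4 neutrophil markers tested 3 rose in each genotype. The fourth, Ltf, was called lower on MCD in Cre and in FLCN KO on chow, and it had 598 counts in Cre chow 5 and at most 27 in any other library. Without Cre chow 5 the call on chow was lost and that on MCD was not. Ltf and Ncl were named after their values were seen, and the fit without Cre chow 5 was added then. Of 5 erythroid markers tested, 3 rose in Cre and 1 fell in FLCN KO, with Hbb-bs the most abundant. All 15 skeletal muscle markers were higher on MCD in Cre, and their sum was 3759 CPM in Cre MCD 3, 185 CPM in Cre MCD 4 and at most 30.1 CPM in the other 3 livers of the group.

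Levels can be compared between members only per length of mRNA. On that scale the members differed 14.3-fold when Rpl24 was left out, around a median of 215 CPM per kb. Rps15 (621 CPM per kb), Rpl41 (546), Rps27 (537) and Rpl10 (533) were the most abundant. Rpl24 (4.02 CPM per kb), Rps20 (43.5), Rps10 (53.0) and Rpl5 (69.2) were the least. Of these, Rpl24 and Rps10 share 71.5% and 91.6% of their exon bases with another annotated gene on the same strand, and the Rps20 model used is 3706 bases long, so their values say little about the mRNA. Of the 75-base stretches of Rpl5, Rps27 and Rpl10, 92.5%, 98.5% and 91.9% occur in other annotated genes, and Rpl5 overlaps Dipk1a on the other strand over 46.6% of its exon bases, so their ranks are uncertain too. Across the 77 members the median share of 75-base stretches that also occur in another annotated gene was 51.3%, and 41 members had over 50%. The 9 members with under 10% shared had medians of 0.17, 0.41 and −0.35 for MCD in Cre, MCD in FLCN KO and FLCN KO on chow, and the 41 with over 50% had 0.24, 0.54 and −0.32, so the shift had the same sign and a like size in both.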

How the data were processed

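Liver mRNA was sequenced in 22 mice, and per the labels and the study's methods reads were trimmed with Trimmomatic, aligned to GRCm38 with STAR and counted per gene with HTSeq. Tool versions, the strand setting, the treatment of multi-mapping reads and whether molecular identifiers were collapsed are not given in the sources used here. The deposited counts are whole, unnormalised reads per gene by the authors. They were analysed with edgeR 4.0.16 in R 4.3.3 (TMM, mean count of at least 10, quasi-likelihood test over 4 groups, Benjamini-Hochberg over 14062 genes at 0.05). Log2 CPM used a prior count of 2. DESeq2 1.42.0, limma-voom (limma 3.58.1), other scalings, filters and sample sets were tried as alternatives. Departures used the same fit with libraries scaled to the mean log count of the members. No 2 libraries were identical in the 50 within-group pairs (Spearman 0.939 to 0.994). p-values measure the spread between livers. The scripts were tested on simulated data. Some genes are counted but not reported by name here. The members and lists were chosen with earlier results of these data known. Named genes were Flcn, the 4 members with the largest and the 4 with the smallest log2 fold change or departure p in each comparison, the 4 most and least abundant per kb, 13 members with known roles, and up to 4 genes a list with the smallest adjusted p.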

Additional observations from a re-analysis of the deposited data

Results flagged for a closer look

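Among 136 groups of livers examined for a single liver far from the rest, 2 had one, where chance gives about 1 in 20. Rpl15, a large-subunit protein, had a log2 CPM of 7.46 in Cre MCD 2, where the other livers of the group had 6.92 to 7.06. Rps18 had a log2 CPM of 7.2 in Cre chow 1, where the other livers had 7.42 to 7.54. The response to MCD differed between the genotypes, by the interaction test, for Rpl22 (0.36 log2 higher in FLCN KO, adjusted p = 0.0455, edgeR), Rpl39 (0.48, adjusted p = 0.0387) and Rps27 (0.46, adjusted p = 0.0417). These calls were lost in 16, 12 and 14 of the 22 fits that left out 1 library, with no change of sign. With all livers, the 3 of 77 members called higher were near the 3.29% of all genes called so. Without Cre MCD 2, 14 members were called higher, where 3.68% of all genes were. The number of calls thus depended on single libraries and is not a result about the family.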

How the results depend on the processing

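The medians over the members kept their direction for MCD in both genotypes and for FLCN KO on chow under every alternative run, and the counts of calls did not stay within 1.5 times. Percentages in this section are the shares of all genes called in the same direction. With library size alone, 73 members rose (56.2%) and 0 fell (12.5%) on MCD in Cre (median 0.70), and the median in FLCN KO was 0.80. In that setting 3 members fell in FLCN KO on chow (0.889%), the interaction called 0 higher (1.26%), and Rpl22 (0.12), Rpl36a (0.37), Rpl36al (0.16) and Rpl7 (0.14) turned positive in Cre. The members lower on chow numbered 19 with at least 10 counts in every library (2.5%) and 12 with no filter (0.576%), and the interaction called 0 higher in both (2.82% and 0.666%). No filter (3.33%), or a fit of only the groups compared (7.38%), left 0 members lower in FLCN KO on MCD. Without the 5 chow libraries in which fewer reads mapped uniquely, 19 rose in Cre (26.5%) and 7 fell on chow (0.846%). Chosen after seeing the data, the high-Xist livers alone gave 8 lower on chow (1.16%), 2 lower on MCD (7.88%) and 0 higher in the interaction (3.16%). The low-Xist livers alone gave 3 higher in Cre (18.3%), 18 higher in FLCN KO (9.3%), 0 lower on chow (0.377%), 0 lower on MCD (2.82%, members' median 0.0885) and 0 higher in the interaction (0.0284%). Without the 5 high-Xist libraries with Y-linked counts, 1 fell on chow (0.519%), 0 on MCD (3.87%) and the interaction called 0 higher (0.149%). Leaving out 1 library gave 22 to 46 higher and 2 to 5 lower in Cre (median 0.15 to 0.33), 58 to 68 higher in FLCN KO (median 0.49 to 0.60), 10 to 41 lower on chow (median −0.37 to −0.28), 0 to 3 lower on MCD (median −0.17 to 0.02) and 0 to 14 in the interaction (median 0.17 to 0.35). Of all genes, those fits called 27.5% to 29.4% higher and 26.2% to 29% lower in Cre and 19.7% to 23.4% higher in FLCN KO. They called 1.21% to 3.98% lower on chow, 6.03% to 8.93% lower on MCD and 1.94% to 4.13% higher in the interaction. The cause of these moves was not tested.

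The main fit did not pair livers by replicate number. Same-numbered livers correlated above 0.1 in 0 of 5 pairs between the Cre groups, 1 of 5 between the FLCN KO groups, 3 of 5 on chow and 2 of 5 on MCD. In the same order, 0, 2, 2 and 4 of 10 libraries correlated best with their own number. With so few pairs, this check cannot show that the numbers carry no pairing. With the replicate block, 33 members rose (28.2%) and 2 fell (26.8%) in Cre, 59 rose in FLCN KO (20.9%), 12 fell on chow (1.76%), 1 fell on MCD (6.36%) and the interaction called 0 higher (1.42%).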
